A study of Mus musculus with 6 samples.

Results

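The genes described here are 3 beta-defensins, Defb25, Defb30 and Defb42, and Fam167a, which lies near the last 2 of them on mouse chromosome 14. They are 4 of the 16593 named genes on the array, and each is read by 1 of its 25697 probes. Every probe annotated to these symbols was taken, and all 4 probes passed the detection filter described below. Whether the beta-defensin probes also read close paralogs was not tested, so each value is that of a probe annotated to 1 gene. The genes were picked because they differed between the groups in an earlier analysis of these same arrays, so their differences are given as a description and not as a test.

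E14, an established line of mouse embryonic stem cells, was profiled as total RNA in 2 groups of 3 arrays. The controls carried a non-specific shRNA and are labelled wild type. The knockdown cells carried shRNAs against Tip5, the product of Baz2a, part of a chromatin remodeller of the nucleolus. In both groups pSuper vectors were electroporated, antibiotic selection began 72 hours later and lasted 6 days, RNA was taken at passage 3, and the medium held serum and 1000 U/ml LIF. The knockdown combined several shRNA constructs with different selection markers, and whether the controls received the same antibiotics is not stated in the labels. The comparison asks how expression differs when Tip5 is lowered.

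Beta-defensins are small, positively charged secreted peptides folded around conserved disulfide bonds. They kill microbes, act on chemokine and melanocortin receptors, and in the mouse many are made by the epididymis, where they coat sperm. Their genes sit in tight clusters on several chromosomes. Fam167a has little functional annotation and is best known as the neighbour of Blk, a Src-family tyrosine kinase of B cells. Baz2a and Blk are given below only as reference points.

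Defb30 and Defb42 stand next to each other in the RefSeq gene table, with 0 other listed genes between them, and point away from each other. Because both were lower in the knockdown, the 250 bases upstream of each annotated start are shown for comparison, 5′ to 3′ on the gene's own strand, from RefSeq on GRCm38.p6, with CpG dinucleotides in capitals. The Defb30 window is chr14:63037847-63038096 on the minus strand and the Defb42 window is chr14:63046741-63046990 on the plus strand.
Defb30: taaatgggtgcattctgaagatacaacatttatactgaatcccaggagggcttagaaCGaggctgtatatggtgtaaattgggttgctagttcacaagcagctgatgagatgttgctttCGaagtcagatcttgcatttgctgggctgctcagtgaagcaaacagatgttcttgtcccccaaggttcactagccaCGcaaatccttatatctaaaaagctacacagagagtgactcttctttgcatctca
Defb42: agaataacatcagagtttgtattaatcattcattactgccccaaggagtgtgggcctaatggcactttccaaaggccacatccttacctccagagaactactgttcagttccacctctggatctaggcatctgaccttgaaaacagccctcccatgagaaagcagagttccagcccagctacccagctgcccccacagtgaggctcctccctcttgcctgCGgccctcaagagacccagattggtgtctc

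Both windows hold fewer CpGs than the median window. Defb30 has 3 CpGs and 43.2% GC, and Defb42 has 1 CpG and 52.0% GC, where the median over 32851 RefSeq windows of this length is 6 CpGs and 52.4% GC. At most 3 CpGs were found in 37.8% of all windows and at most 1 in 18.8%, so neither count is rare. The neighbouring defensins Defb43 and Defb47 have 5 CpGs each and Defb48 has 1. Both strands were searched for short motifs. TATAAA occurs 1 time in the Defb30 window (12.4% of all windows hold it) and not in that of Defb42. In the Defb30 window it lies on the opposite strand, as TTTATA, near the end farthest from the annotated start. CANNTG, the E-box, occurs in both (66.2% of all windows). GATAA (22.6%), ATGCAAAT, the octamer read by Oct4 (1.60%), CATTGTT, a SOX motif (3.29%) and TGANTCA, an AP-1 motif (6.75%), occur in neither. None of these motifs overlaps another by its letters alone. The promoter table matched 2 of the 4 genes. Defb25 and Fam167a are named only.

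Levels below are log2 values after background correction and quantile normalization, and a difference of 1 is a doubling. A probe counts as above background where its detection p-value, read here as its rank against the negative controls, is under 0.05. Levels of different probes are not set against each other.

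Baz2a, the targeted gene, had control levels of 6.42, 7.51 and 5.99 and knockdown levels of 5.21, 4.74 and 5.13, in the order of the replicate numbers. The groups did not overlap, and the difference of -1.62 (SE 0.39, 95% interval -2.52 to -0.71) corresponds to a measured 32.6% of the control. Knockdown replicate 2 was not above background for Baz2a, while the other 5 arrays were. It did not pass in limma (adjusted p = 0.203, and 0.0810 with the replicate number as a block). Both replicate 3 arrays lay apart from the other 4 on the first principal component (52.8% of the variance). Primitive endoderm genes were highest on knockdown replicate 3, while control replicate 3 lay close to the other controls. Over 17 such genes on the array, 16 of them detected, the summed linear level was 7878, 9192 and 9722 in controls and 6121, 6093 and 28321 in knockdown replicates 1, 2 and 3.

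Defb30 was above background on every control array and on no knockdown array. Its deposited probe signals were 172.2, 146.9 and 258.9 in control replicates 1, 2 and 3, with detection p-values of 0.00125, 0.00125 and 0. In the knockdown they were 114.3, 115.5 and 204.2, with detection p-values of 0.672, 0.417 and 0.107, so all 3 knockdown arrays lay within the range of the negative controls. Replicate 3 arrays are brighter throughout, with medians over all probes of 184.5 and 218.8 against 125.1 to 133.5 in the other 4, and normalization removes that offset.

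The normalized Defb30 levels were 6.45, 6.11 and 6.42 in controls and 4.44, 4.54 and 4.80 in the knockdown. The controls lay close together and all 3 above the knockdown arrays. The means were 6.33 ± 0.19 and 4.59 ± 0.18 (SD, n = 3), a difference of -1.74 (SE 0.19). Because the knockdown side was not above background on any array, its level has only an upper bound. The mean of the lowest signal called detected on each knockdown array was taken as that bound, and Defb30 was at least 2.43-fold lower in the knockdown. At the measured values, pairs of the same replicate number differed by -2.02, -1.57 and -1.63, and the same limit holds for these. In bulk RNA, fewer cells that express a gene and less RNA per cell cannot be told apart.

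Defb42, the adjacent gene, was also lower in the knockdown, and its control arrays were spread widely. Its deposited signals were 480.8, 388.1 and 304.3 in controls and 131.7, 154.7 and 217.9 in the knockdown. All 6 were above background, though knockdown replicates 1 and 3 only just so (detection p-values 0.0376 and 0.0313). The normalized levels were 9.05, 8.87 and 6.88 in controls and 5.22, 6.25 and 5.05 in the knockdown.

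Control replicate 3 thus lay well below the other controls, and still above all 3 knockdown arrays. The Defb42 means were 8.27 ± 1.20 and 5.51 ± 0.65 (SD, n = 3), a difference of -2.76 (SE 0.61), which leaves 14.8% of the control level. The differences in pairs 1, 2 and 3 were -3.83, -2.61 and -1.84. Without control replicate 3 the difference was -3.45, and with replicates 1 and 2 only it was -3.22.

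Fam167a was lower in the knockdown and above background on all 6 arrays. Its deposited signals were 239.3, 240.7 and 368.3 in controls and 175.7, 190.9 and 309.0 in the knockdown, with a detection p-value of 0 on all 6 arrays. The normalized levels were 7.54, 7.81 and 7.35 in controls and 6.76, 7.04 and 6.26 in the knockdown. The groups did not overlap, with 0.31 between the lowest control and the highest knockdown array. The means were 7.57 ± 0.23 and 6.69 ± 0.40 (SD, n = 3), a difference of -0.88 (SE 0.25), which leaves 54.4% of the control.

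Defb25, in another defensin cluster on chromosome 2, was higher in the knockdown. Its deposited signals were 136.8, 121.6 and 256.6 in controls and 168.0, 163.2 and 614.2 in the knockdown. Control replicate 2 was not above background (detection p-value 0.0990), control replicate 1 was so by little (0.0251), and the other 4 had a value of 0. The normalized levels were 5.24, 4.86 and 6.40 in controls and 6.58, 6.50 and 7.83 in the knockdown.

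In both groups replicate 3 was the highest array for Defb25. Control replicate 3 came within 0.10 of the lowest knockdown array, so the groups nearly touched. The means were 5.50 ± 0.80 and 6.97 ± 0.75 (SD, n = 3), a difference of 1.47 (SE 0.49), or 2.76-fold at the measured values, with 2 of 3 control arrays above background. Pairs 1, 2 and 3 differed by 1.34, 1.64 and 1.43, the second of them against the control array that was not above background. The array with the highest Defb25 was also the one with the highest summed endoderm level. Whether these levels are linked was not tested. With replicates 1 and 2 only, the Defb25 difference was 1.49, again from the contrast that chose the gene.

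**Figure D1:**
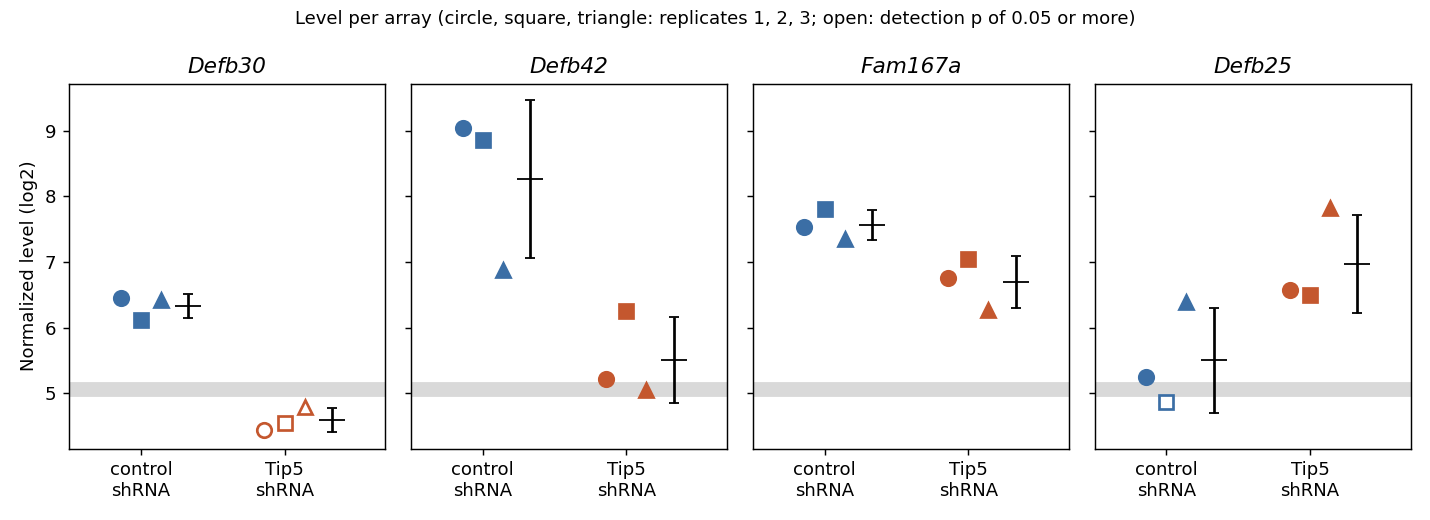
Normalized log2 level of each gene on each array. Circles, squares and triangles are replicates 1, 2 and 3, open symbols were not above background, bars are the mean and SD of 3 arrays, and the grey band spans the lowest detected level of the 6 arrays. Defb30 falls below the band on all 3 knockdown arrays, and Defb25 runs the other way.

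The values that led to these genes being picked came from the 2-group fit and from one that also held a term for the replicate number (the block). Over all 13064 probes tested in limma, 0.0689% were called with 2-group means, all of them lower in the knockdown, and 1.71% with the block (1.1% lower and 0.605% higher). Defb30 was among the calls of the first fit, at an adjusted p of 0.04996, just inside the threshold of 0.05. It had passed the detection filter only through the controls, the group where it is high. Adjusted p-values in the first fit were 0.172 for Defb42, 0.265 for Fam167a and 0.346 for Defb25. With the block they were 0.0181 for Defb30, 0.0202 for Defb25, 0.0342 for Defb42 and 0.0498 for Fam167a, the last again just inside. Groups that do not overlap, the case for all 4, were found in 16.1% of all tested probes (7.73% lower and 8.34% higher in the knockdown). Nothing is read from these counts, since the contrast chose the genes.

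**Figure D2:**
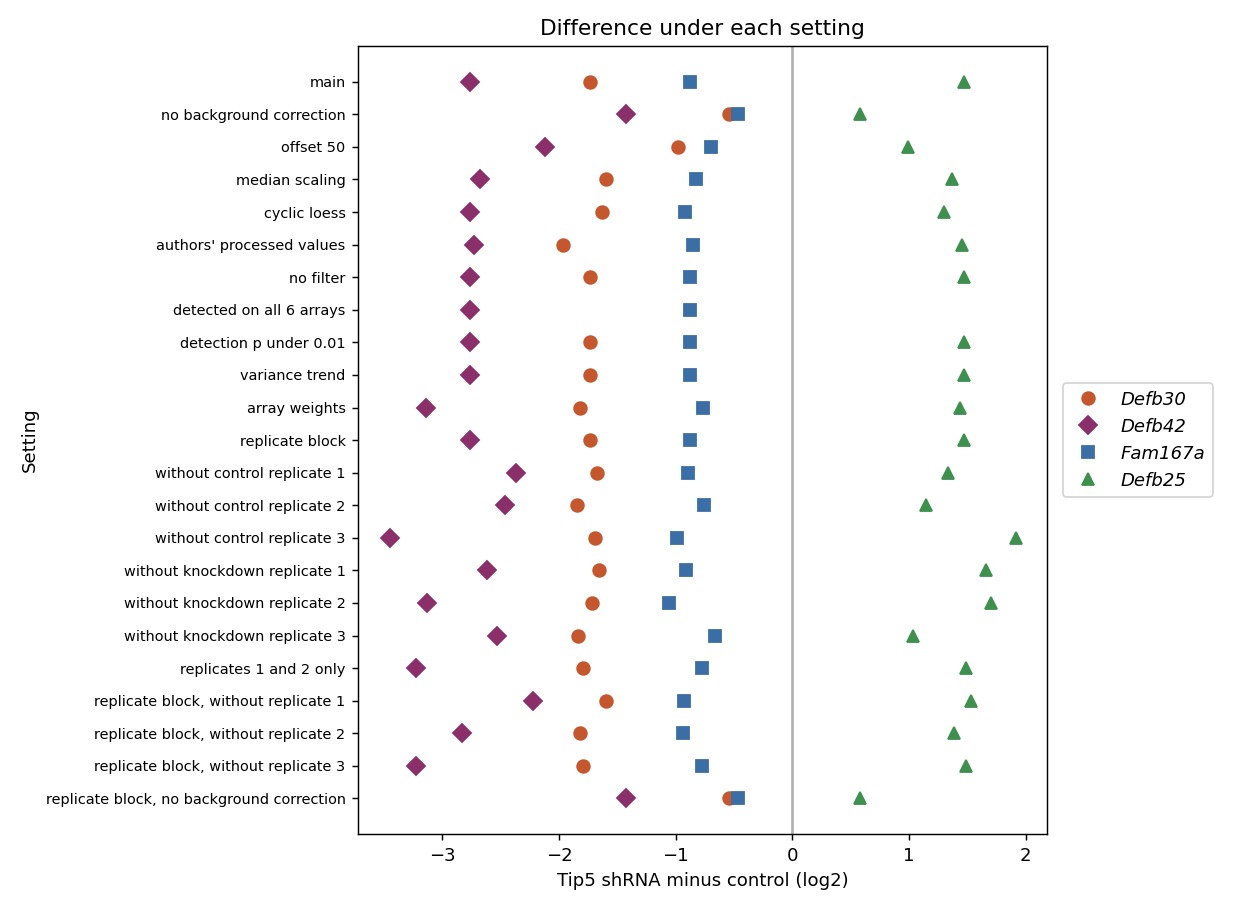
Log2 difference of each gene, knockdown minus control, under the processing used here (main) and each alternative. All points of Defb30, Defb42 and Fam167a lie below 0 and all points of Defb25 above it, while sizes shrink most with no background correction.

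The size of each difference depends on the background correction, as the plot of differences by setting shows. With no background correction Defb30 differed by -0.54, Defb42 by -1.42, Fam167a by -0.47 and Defb25 by 0.58. With an offset of 50 Defb30 differed by -0.98 and Defb25 by 0.99.

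Few of the genes around them could be tested. The 10 protein-coding genes on each side of each of the 4 genes gave 45 neighbours, of which 34 had a probe, 13 were beta-defensins and 9 had a tested probe. On chromosome 14, 3 of 18 neighbour probes were tested, those of Ctsb, Mtmr9 and Pinx1, and 0 were called in limma with either fit (0 at an unadjusted p under 0.05, where 10.5% of all tested probes were). On chromosome 2, 10 of 26 were tested and 0 were called with either fit (1 at an unadjusted p under 0.05). Over all tested probes 0.0689% and 1.71% were called by these fits. The median difference was 0.16 on chromosome 14 and 0.15 on chromosome 2, and that of all tested probes was 0.01.

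Ctsb, the lysosomal protease cathepsin B and the next gene after Defb42, read 11.11, 10.94 and 10.63 in controls and 10.73, 10.88 and 10.95 in the knockdown. Its groups overlapped fully, and the difference was -0.04 with a 95% interval of -0.49 to 0.42 (limma adjusted p = 0.982). That interval overlaps the one of Fam167a, -1.47 to -0.29, but not those of Defb42 (-4.18 to -1.34) and Defb30 (-2.19 to -1.28). The Defb30 interval is at measured values, with the knockdown not above background, and the contrast chose these genes. Whether Ctsb differs from the genes on either side of it was not tested. Beyond Fam167a, the phosphatase family gene Mtmr9 differed by 0.17 (interval -0.26 to 0.60) and Pinx1, a telomerase inhibitor, by 0.16 (interval -0.52 to 0.83). Neither passed in limma (adjusted p = 0.876 and 0.935). Sox7, the endoderm list gene that follows Pinx1, had no tested probe. Its probes differed by 0.85 and 0.77 in the means, and both values rest on knockdown replicate 3, which read 8.23 and 6.84.

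On the other side of Defb30 come Defb43, Defb47 and Defb48, each above background on 0 of 6 arrays. The 3 probes of Blk, which stands just before Fam167a, were also above background on 0 of 6 arrays, so no difference could be measured for this neighbour. Gata4, a cardiac and endodermal transcription factor between Defb42 and Blk, was above background on knockdown replicate 3 alone, with levels of 5.10, 4.85 and 5.03 in the knockdown and 4.42, 4.45 and 4.52 in controls. Neil2, a DNA glycosylase, was above background on 1 array of each group. Fdft1 and Tdh, also in this stretch, had no probe under these symbols and are not analysed here.

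**Figure D3:**
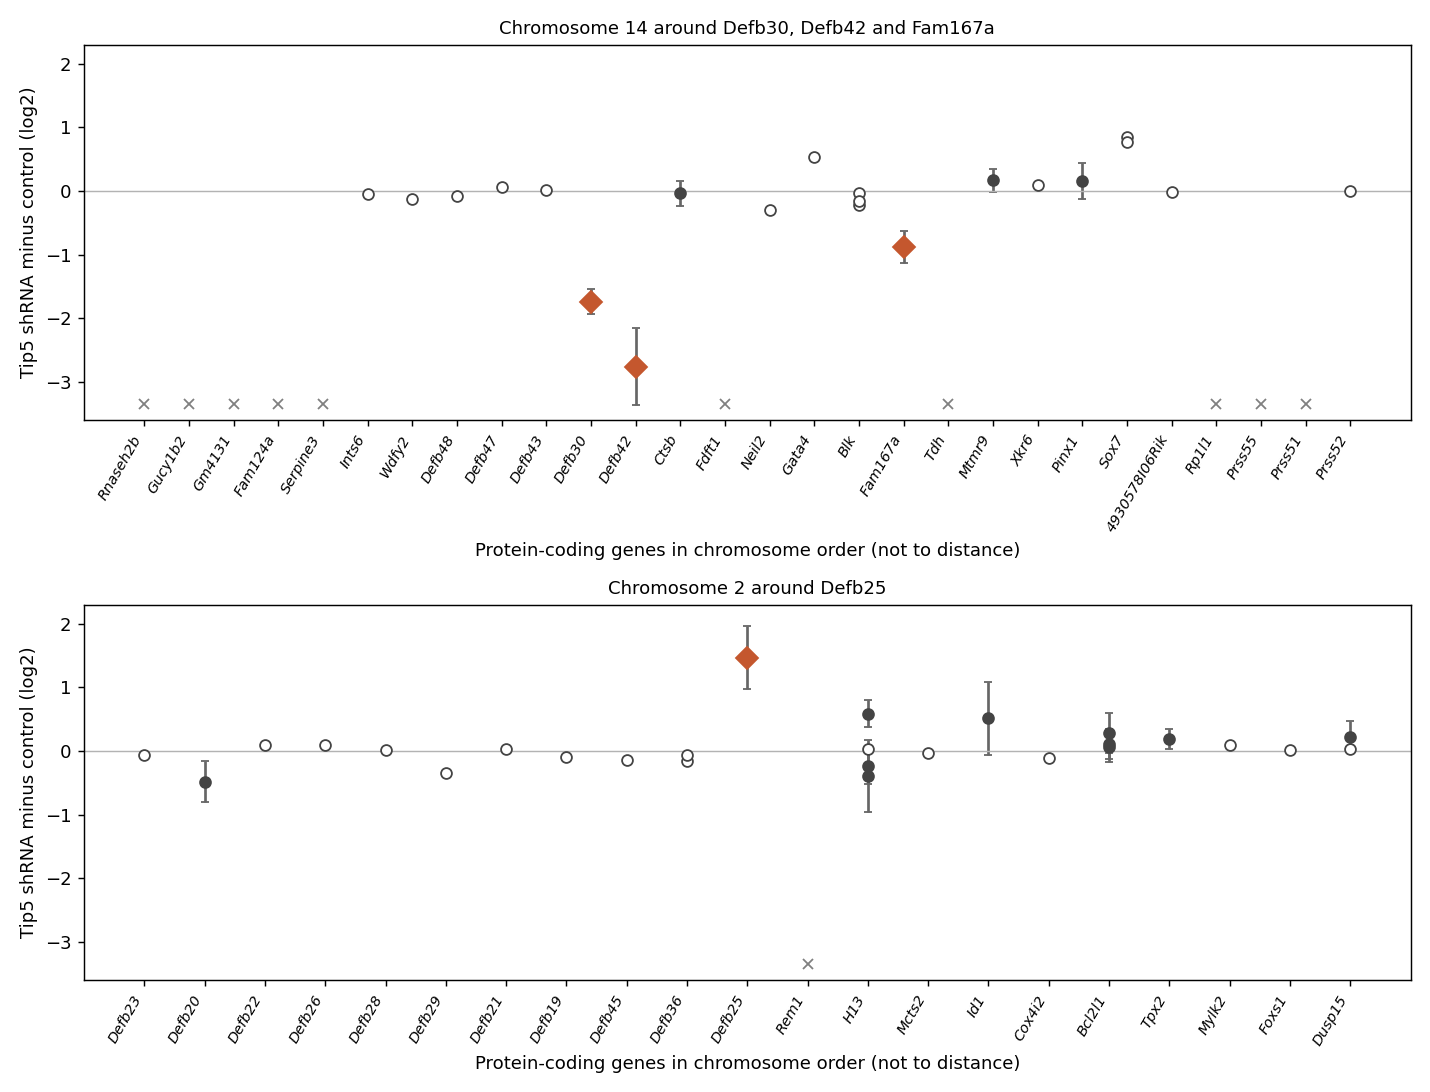
Log2 difference, knockdown minus control, of the genes around Defb30, Defb42 and Fam167a (top) and around Defb25 (bottom), in chromosome order and not to distance. Diamonds are the 4 genes described, filled circles are other tested probes with the moderated SE, open circles were not tested, and crosses at the lower edge are genes with no probe. The tested neighbours lie between -0.49 and 0.59, and the untested Sox7 probes at 0.85 and 0.77.

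Around Defb25 on chromosome 2 the genes on one side are defensins and those on the other are not. The nearest of the defensins, Defb36, had 1 probe above background on 1 array of each group and another above it on none. Defb20 was the only tested defensin of that side: it read 6.41, 5.47 and 5.21 in controls and 5.42, 5.11 and 5.09 in the knockdown, and its groups overlapped. The Defb20 difference was -0.49 (SE 0.32, limma adjusted p = 0.715, and 0.220 with the block). On the other side, the differentiation inhibitor Id1 differed by 0.52 (interval -0.83 to 1.86) and the spindle factor Tpx2 by 0.19 (interval -0.18 to 0.56). The signal peptide peptidase H13 had 3 tested probes that disagreed in sign, from -0.39 to 0.59.

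Few other members of the family were above background in these cells. The array held 43 probes for 40 other beta-defensin genes (Spag11a and Spag11b counted in), and 37 of the 43 (86.0%) were above background on none of the 6 arrays, where 39.0% of all probes were. Per array, 1 to 3 of the 43 probes were above background in controls and 2 to 3 in the knockdown. A threshold of 0.05 by construction lets through that fraction of the negative controls. Alpha-defensins are made in the mouse mainly by intestinal Paneth cells. All 8 probes under 7 alpha-defensin symbols, among them the pseudogene Defa-ps1, were above background on none of the arrays.

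Only Defb15 and Defb20 of those 40 genes passed the filter. Defb15 was above background on all 3 knockdown arrays and on 0 of 3 control arrays, and so passed only through the group where it is high. Its levels were 4.65, 4.61 and 4.79 in controls and 5.18, 5.17 and 5.04 in the knockdown, close to the floor in both. The difference was 0.44 (SE 0.17) and did not pass in limma (adjusted p = 0.396, and 0.146 with the block). In limma 0 of these 2 probes were called (1, that of Defb15, at an unadjusted p under 0.05, where 10.5% of all tested probes were). With array weights Defb15 was called (adjusted p = 0.0394), as were 9.25% of all tested probes, and nothing is read from either, given how Defb15 passed the filter.

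**Figure D4:**
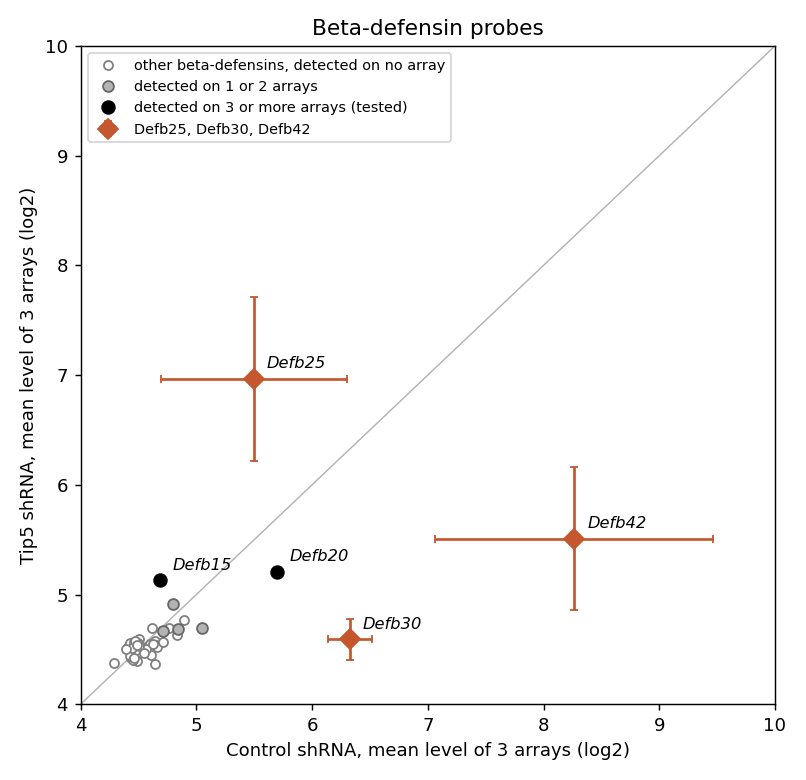
Mean log2 level of each beta-defensin probe in the 3 control arrays (x axis) and the 3 knockdown arrays (y axis), with the line of equal levels. Diamonds carry the SD of 3 arrays. Most of the 43 other probes sit in a cluster near the floor, with Defb30 and Defb42 below the line and Defb25 above it.

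Genes that receive or signal for defensins were also examined, from lists chosen with earlier results known. Of 15 receptor and sensing genes on the array, 8 were tested and 0 were called in limma with either fit (4 of 10 probes at an unadjusted p under 0.05, against 10.5% of all tested probes). The probe median was 0.30, against 0.01 for all tested probes. The chemokine and melanocortin receptor genes Ccr2, Mc1r and Mc4r were above background on none of the arrays. The tested probe of Ccr6, another such gene, differed by -0.23 (SE 0.22, limma adjusted p = 0.843). The adaptor Myd88 differed by 0.61 (SE 0.18, adjusted p = 0.269), the bacterial sensor Nod1 by 0.67 (SE 0.23, adjusted p = 0.367) and the ligase Traf6 by 0.54 (SE 0.22, adjusted p = 0.447). Nod1 was above background on 1 control array and 3 knockdown arrays. The 3 tested Traf6 probes disagreed in sign, the other two lying at 0.45 and -0.44. Of 22 other antimicrobial protein genes, 4 were tested and 0 called (1 of 6 probes at an unadjusted p under 0.05, against 10.5% of all). Wfdc2, a whey acidic protein family member of the epididymis and airway, was -0.97 and -0.75 on its 2 probes (adjusted p = 0.265 and 0.486).

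Most markers of cells that make defensins did not pass the detection filter. Of 15 epididymal genes 0 were tested. Keratinocyte and airway genes gave 4 tested of 14 and 0 calls (2 of 4 probes at an unadjusted p under 0.05 in limma, against 10.5% of all), with Lor at 0.99 (adjusted p = 0.451) and Krt14 at -0.90 (adjusted p = 0.350). Macrophage and neutrophil genes gave 2 tested of 11 and 0 calls (0 at an unadjusted p under 0.05 in limma), with Laptm5 at 0.29. The summed level of the epididymal probes was 476 to 519 in controls and 481 to 505 in the knockdown. Of these 21 probes, 19 were above background on no array, so the sum is mostly floor and does not measure epididymal expression.

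Among B cell genes, 4 of 7 were above background on some array, 3 were tested, and 2 fell in the fit with the block, where 1.1% of all probes were called lower. The B cell receptor subunit Cd79b fell by 1.71 (SE 0.26, limma adjusted p = 0.0258 with the block and 0.0883 without). Its other probe, at -1.43, was called by neither fit. The surrogate light chain gene Vpreb1 fell by 1.11 (limma adjusted p = 0.0437 with the block and 0.473 without). The B cell markers Ms4a1, Pax5 and Blk itself were above background on none of the arrays, and the summed level of the list was 602 to 631 in controls and 321 to 405 in the knockdown. Embryonic stem cell markers were present throughout: 12 of 12 were tested, 0 were called in limma with either fit (1 of 21 probes at an unadjusted p under 0.05, against 10.5% of all), and their median was 0.01. Fibroblast genes gave 4 tested of 11 and 0 calls (1 of 7 probes at an unadjusted p under 0.05 in limma, against 10.5% of all), with Thy1 at -0.97 (adjusted p = 0.255). Of the endoderm genes, 10 of 17 were tested and 0 called (0 at an unadjusted p under 0.05 in limma).

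The genes whose pattern over the 6 arrays was most like each gene described here were found by Pearson r among the tested probes. With 6 arrays that share the groups and the replicate 3 offset, and 13064 probes to choose from, a high r is easily reached, and it is given as a description. For Defb30 these were Rpl38, Tmem101, Plac8, Tbcd and Mzb1 (r from 0.989 to 0.993). For Defb42 they were Alox12b, Tefm, Tnfrsf1a, Igtp and Pabpc4 (0.994 to 0.999), and for Fam167a Wdr20rt, Liph, Hormad2, Mlh3 and Clec2e (0.992 to 0.998). For Defb25 they were Wls, Map2k2, Prrt3, Fam171b and Zfhx2 (0.992 to 0.996).

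Measured on deviations from each group's mean, which leave out the knockdown difference, the closest genes were others, apart from Alox12b for Defb42 (r = 0.999). They were led by Nfe2 for Defb30 (0.998), Atp8b3 for Defb42 (0.999), Lrch1 for Fam167a (0.999) and Zfp451 for Defb25 (0.9998). On the same deviations Defb25 ran against Defb42 (r = -0.82) and Fam167a (-0.90), since replicate 3 was the highest array of its group for the first and the lowest for the other 2. Defb42 and Fam167a ran together (0.69), while the adjacent Defb30 and Defb42 did not (-0.34). Defb30 ran against Fam167a (-0.79) and with Defb25 (0.78). The values for Defb30 rest in part on its 3 knockdown arrays that were not above background, and those for Defb25 on 1 such control array.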

How the data were processed

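Illumina mouse BeadChips were hybridised with biotinylated cRNA. The authors deposited, per the file headers, each array's probe intensity with its detection p-value; the submitters' processing notes name GenomeStudio 2011.1. A second deposited table holds the authors' processed intensity, a straight-line rescaling of the same signals with a floor of 1 (linear, not centred; column medians 16.2, 16.4 and 16.6 in controls, 14.6, 15.7 and 19.2 in the knockdown; the sources used here do not say how its constants were set). It served as an alternative.

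Here, limma 3.58.1 in R 4.3.3 corrected the background (normexp from the detection p-values, offset 16), quantile-normalized and took log2. The 13064 of 25697 probes (50.8%) with detection p under 0.05 on at least 3 arrays were tested with lmFit and eBayes (4 residual, 3.30 prior degrees of freedom), Benjamini-Hochberg adjusted over all of them, threshold 0.05. Moderated SEs are given. Symbols (23978 probes with 1, 0 with several, 1719 with none) were updated by Entrez identifier through the GRCm38.p6 gene table (23962 matched). Gene order comes from that table. No coordinates are given for probes, since no build is named for the array.

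Replicate numbers come from the sample titles. Deviations of same-numbered arrays from their group means correlated at 0.44, 0.52 and 0.71 in pairs 1, 2 and 3. Arrays of unlike number were not compared. Because both replicate 3 arrays lay apart from the others, these values cannot show whether replicates 1 and 2 are paired by number. The numbers were taken to pair the arrays as an assumption, and blocked values stand beside results they change. The number of arrays limits the precision. The script was tested on simulated data. Named genes are all 4 genes, called list members, otherwise up to 3 of a list with the largest difference, neighbours chosen after their values were seen, and the 5 most alike in pattern. The genes and lists were chosen with earlier results of these data known. Alternatives were background, normalization, filter, variance, weights, block and left-out arrays.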

Additional observations from a re-analysis of the deposited data

How the results depend on the processing

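No alternative that tested them turned the direction of any of the 4 genes (21 for Defb25 and Defb30, which the filter on all 6 arrays left out, and 22 for Defb42 and Fam167a). As the contrast chose them, this is no separate support. Of 152 values under alternatives, 122 stayed within the spread of replicates or 1.5 times the count. Many of these could not move. Settings that change only the filter, the variance model or the block leave a gene's difference as it was. Most counts for other beta-defensins and for neighbours were 0 in the main fit and under the alternative. The tally is therefore no measure of stability. With no background correction the differences were 0.58 (Defb25), -0.54 (Defb30), -1.42 (Defb42) and -0.47 (Fam167a), the same joined to the replicate block. Defb30 was -0.98 with offset 50 and -1.97 with the authors' values. Leaving out 1 array gave 1.04 to 1.92 for Defb25, -1.85 to -1.66 for Defb30, -3.45 to -2.37 for Defb42 and -1.06 to -0.67 for Fam167a. Over the alternatives adjusted p in limma ran from 0.0138 to 0.845 for Defb25 (under 0.05 in 6), 0.00164 to 0.305 for Defb30 (10), 0.00535 to 0.629 for Defb42 (7) and 0.0172 to 0.763 for Fam167a (3). Defb30 was over the threshold in 11 of its 21 alternatives: no filter (0.0743), median scaling (0.143), offset 50 (0.0571), no background correction (0.124), the authors' values (0.0979), the block without replicate 2 (0.0653) and 5 of the 6 fits without 1 array (0.0540 to 0.305, the exception being knockdown replicate 3 at 0.0255).

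Probes called numbered 9, and 4 with no background correction, 28 with offset 50, 4 with median scaling, 25 with cyclic loess, 3 with the authors' values, 0 with no filter in limma, 29 with a variance trend, 1208 with array weights and 223 with the replicate block. Leaving out 1 array gave 0 to 98, and replicates 1 and 2 only 564. The block gave 52 without replicate 1, 10 without replicate 2 and 669 without replicate 3, and 1102 with no background correction. Calls among other beta-defensins stayed at 0 except 1 (Defb15) with array weights, and among neighbours at 0. The settings that join the block to another choice were added after seeing the data. Signals at or near background limit Defb30 and Defb42 in the knockdown, Defb25 in controls, and most of the other beta-defensins.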
